A study of Mus musculus with 8 samples.

Results

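Hybrid cells made by fusing extended pluripotent stem cells (EPSCs) with neural stem cells (NSCs) were compared, gene by gene, with both parental cell types. For each gene, the level in hybrid cells was set against the EPSC level, the NSC level, and the midpoint of the parental group means on the log2(FPKM + 1) scale, where FPKM stands for fragments per kilobase of transcript, scaled to 1000000 mapped fragments. Genes entered when their mean FPKM reached at least 1 in EPSCs, NSCs, or hybrid cells, which held for 12979 of the 24354 genes listed. The question was which genes of the hybrid cells were additive (between the parents), which followed 1 parent, and which left the range of both.

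RNA sequencing covered 2 libraries each of hybrid cells, EPSCs, NSCs, and ESCs. The EPSCs, labelled wild type as were the ESCs, were line 1 at passage 15, derived from C57BL/6 embryos and grown in LCDM medium (human LIF, the GSK3 inhibitor CHIR99021, dimethindene maleate, and the antibiotic minocycline) on inactivated C3H fibroblasts as feeder cells. The NSCs were heterozygous for OG2, a GFP reporter under Oct4 control, and for the ROSA26 transgene, and grew without feeders on gelatin in N2 medium with EGF and FGF2. The hybrid cells were line 2-2 at passage 10, obtained with polyethylene glycol and kept in the EPSC medium on the same kind of feeders, and their label calls them tetraploid. The E14 ESCs, grown in serum and LIF on feeders, were no parent and entered as a further reference and in the estimate of the spread. The labels give both libraries of a group 1 line name, so the spread and the p-values describe repeated libraries and not independent fusions. The hybrid cells shared medium and feeders with the EPSCs but not with the NSCs, so the effects of medium, feeders, and fusion cannot be told apart in any comparison with NSCs.

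In cell fusion, factors of a pluripotent cell act on the nucleus of a somatic partner, and the somatic program is usually silenced while the pluripotency network is switched on from both genomes. Under a purely additive model, a hybrid cell would express each gene at the mean of the parental FPKM. That mean lies above the midpoint on the logarithmic scale used here wherever the parents differ. Other outcomes distinguished in genetics are dominance of a parent and expression above or below both parents, which in hybrids is often called transgressive.

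The defining markers followed the labels. Pou5f1, the gene of OCT4, had 1009 and 741.6 FPKM in the hybrid libraries, 948.7 and 790.2 in EPSCs, and was listed at 0 in NSCs. Fabp7, a radial glia marker, had 0.0761 and 0.238 FPKM in hybrid cells and 2798 and 2709 in NSCs. Fibroblast markers differed between the groups. The summed FPKM of 8 defining fibroblast genes was 228 and 165 in the hybrid libraries, 59.1 and 61.0 in EPSCs, 7.47 and 8.88 in NSCs, where 3 of the 8 were listed at 0, and 12.4 and 13.7 in ESCs. A longer fibroblast list of 32 genes summed to 1769.8 and 1504.3 in the hybrid libraries and 938.04 and 1053.6 in EPSCs. In NSCs it summed to 1281.5 and 1199.7, above EPSCs. Most of the NSC sum was the single gene Vim, at 1045 and 976.3 FPKM. Vim had 655.4 and 543.9 FPKM in the hybrid libraries and 291.8 and 299.2 in EPSCs. Depths read from the steps of the FPKM values were 21.95 to 32.58 in units of 1000000 fragments, and 3 fragments on a transcript of 2 kb corresponded to 0.046 to 0.0683 FPKM, a floor for counting error only.

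The largest class of genes in the hybrid cells was that at the EPSC level. Each contrast was called by limma at a Benjamini-Hochberg adjusted p under 0.05 and a difference of at least 1.5-fold on the log2(FPKM + 1) scale. EPSCs and NSCs differed in 8783 genes (67.7% of those tested). Hybrid cells were above the parental midpoint in 2770 genes (21.3%) and below it in 2936 (22.6%), a split that became 2010 and 4570 when all libraries were scaled to a common sum. They were higher than EPSCs in 980 genes (7.55%) and lower in 739 (5.69%), whereas they were higher than NSCs in 4458 (34.3%) and lower in 4301 (33.1%). The split against NSCs became 2889 and 6287 under the common sum. Combining the contrasts, 6776 genes (52.2%) were at the EPSC level. In these, EPSCs and hybrid cells were both called apart from NSCs but not from each other. The NSC level held 274 (2.11%), and 520 (4.01%) were between both parents. A further 550 genes (4.24%) were above both parents and 250 (1.93%) below both, against 502 and 429 under the common sum. The count at the EPSC level was 5100 with a 2-fold minimum, 5865 with no fold minimum, and 6025 with a pseudocount of 3, all less than 0.5 of the genes tested. No contrast was called for 3126 genes, and 1483 had a single or incomplete set of calls. A gene not called apart from a parent was not shown to be equal to it.

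**Figure D1:**
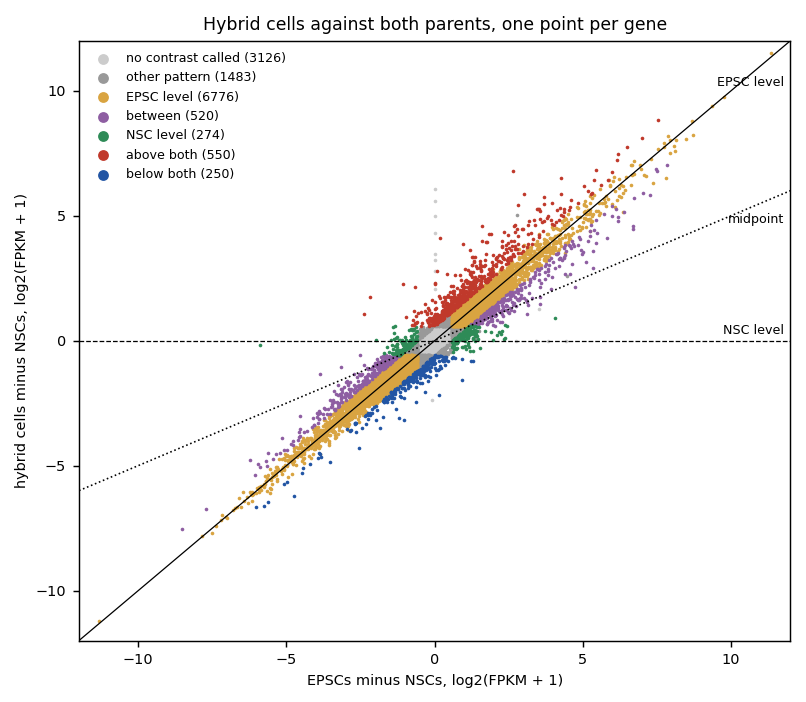
Each point is 1 of the 12979 genes, with EPSCs minus NSCs on the x axis and hybrid cells minus NSCs on the y axis, both as differences of group means of log2(FPKM + 1), and colours give the class. The cloud follows the solid line of the EPSC level and not the dotted line of the midpoint, with 550 genes above and 250 below both parents.

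The position of a gene between the parents was set to 0 at the NSC mean and 1 at the EPSC mean. Over the 8783 genes that separated the parents, its median was 0.968, with quartiles of 0.8 and 1.12, and the midpoint would be 0.5. The hybrid libraries gave medians of 0.976 and 0.965. Genes higher in EPSCs had a median position of 0.958 and genes higher in NSCs one of 0.973, so both directions lay close to the EPSC end. Within the class at the EPSC level, 5359 of 6776 genes (79.1%) had a position at most 0.25 away from 1, and the median absolute difference was 0.18 from EPSCs and 1.40 from NSCs. For comparison, the median absolute difference between the hybrid libraries was 0.13 and that between the EPSC libraries 0.11.

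At the EPSC level, the largest parental differences in 1 direction were those of Dppa5a, Pou5f1, Rps4l, and Tdgf1. Dppa5a, an RNA-binding protein of pluripotent cells, had 2955 and 2830 FPKM in hybrid cells and 2669 and 2580 in EPSCs, and was listed at 0 in NSCs, as were Pou5f1, Rps4l, and Tdgf1, a Nodal co-receptor. Rps4l had 641.8 and 686.8 FPKM in hybrid cells against 653.5 and 660.6 in EPSCs. Tdgf1 had 337.1 and 264.5 FPKM in hybrid cells against 453.3 and 388.2, a difference of -0.49 (log2; adjusted p = 0.0124) that was short of the 1.5-fold minimum. Neither the Dppa5a nor the Tdgf1 libraries of hybrid cells overlapped with those of EPSCs. In the other direction stood Fabp7, the receptor phosphatase Ptprz1, and the brain proteoglycans Ncan and Bcan. Ptprz1 had 0.221 and 0.195 FPKM in the hybrid libraries, 0.223 and 0.16 in EPSCs, and 272.3 and 271.6 in NSCs. Ncan and Bcan were under 0.3 FPKM in both hybrid and both EPSC libraries and between 180.2 and 218.1 in NSCs. Of 21 pluripotency genes tested, 16 were at the EPSC level, 2 above both parents, and 2 between, where the shares over all genes were 52.2%, 4.24%, and 4.01%. Of 24 neural stem cell genes, 17 were at the EPSC level, 4 below both parents (1.93% of all genes were), and 2 between.

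The genes above both parents mostly exceeded EPSCs by less than 2-fold on the log2(FPKM + 1) scale, with a tail of large differences. On this scale, the median difference from the nearer parent was 0.83. The difference reached 2-fold in 190 of the 550 genes and 4-fold in 23, with the highest at 4.17. Folds on the FPKM means are larger, above all for low genes. EPSCs were the nearer parent for 499 genes and NSCs for 51. Between the parents themselves, EPSCs were higher in 359 of them and NSCs in 12, and 179 were not called. Both hybrid libraries were above all 4 parental libraries in each of the 550, an arrangement found in 18.7% of all genes tested. They were above the ESC libraries as well in 469 genes. The hybrid mean was under 3 FPKM in 127 of the 550, where few fragments stand behind each value.

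The leading genes above both parents included X-linked and meiotic genes. Tex13, a testis-expressed X-linked gene, had 11.98 and 21.72 FPKM in the hybrid libraries, 0.0947 and 0.159 in EPSCs, and was listed at 0 in NSCs. Xlr3a, of the X-linked lymphocyte-regulated family of chromatin proteins, had 71.0 and 62.8 FPKM in the hybrid libraries, 8.59 and 7.91 in EPSCs, and 0.218 and 0.0964 in NSCs. It exceeded EPSCs by 2.88 ± 0.0972 (log2, SE; adjusted p = 1.39e-05), 8.11-fold on the FPKM means. Fkbp6, a chaperone of meiosis and of piRNA loading, had 40.3 and 43.8 FPKM in hybrid cells and 3.65 and 9.56 in EPSCs, and was listed at 0 in NSCs. The difference from EPSCs was 2.62 ± 0.32 (adjusted p = 0.000893). Ccnb1ip1, which acts in meiotic crossing over, had 17.2 and 19.6 FPKM in hybrid cells against 2.40 and 2.81 in EPSCs, and the ESC libraries, at 20.6 and 18.3, overlapped the hybrid ones.

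Other leading genes had different roles. Ipp, an actin-binding kelch protein, was high against both parents, with 48.7 and 47.0 FPKM in the hybrid libraries, 3.69 and 3.93 in EPSCs, and 8.74 and 9.68 in NSCs. Its difference was 3.34 ± 0.0976 from EPSCs and 2.26 ± 0.0976 from NSCs (larger adjusted p = 9.23e-06), and the ESC libraries had 3.22 and 2.59. Ccl8, a chemokine, had 17.7 and 19.1 FPKM against 3.23 and 2.32 in EPSCs. The cytochrome P450 gene Cyp2b23 had 8.74 and 14.9 FPKM against 1.05 and 1.54 in EPSCs. Fam25c, at 71.1 and 111.9 FPKM against 17.4 and 19.1, and Mmrn2, an extracellular matrix glycoprotein, at 4.53 and 6.69 against 0.351 and 0.361, were also high in ESCs, at 82.0 and 81.9 and at 3.88 and 3.92. Mmrn2 had mean FPKM under 1 in both parents and entered only through the hybrid cells, so the filter favoured its place above both. Among unnamed gene models, 1700013H16Rik, on the X chromosome, had 109.5 and 111.8 FPKM in hybrid cells against 3.49 and 7.62 in EPSCs. LOC105246506 had 24.4 and 22.9 against 2.11 and 2.03.

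**Figure D2:**
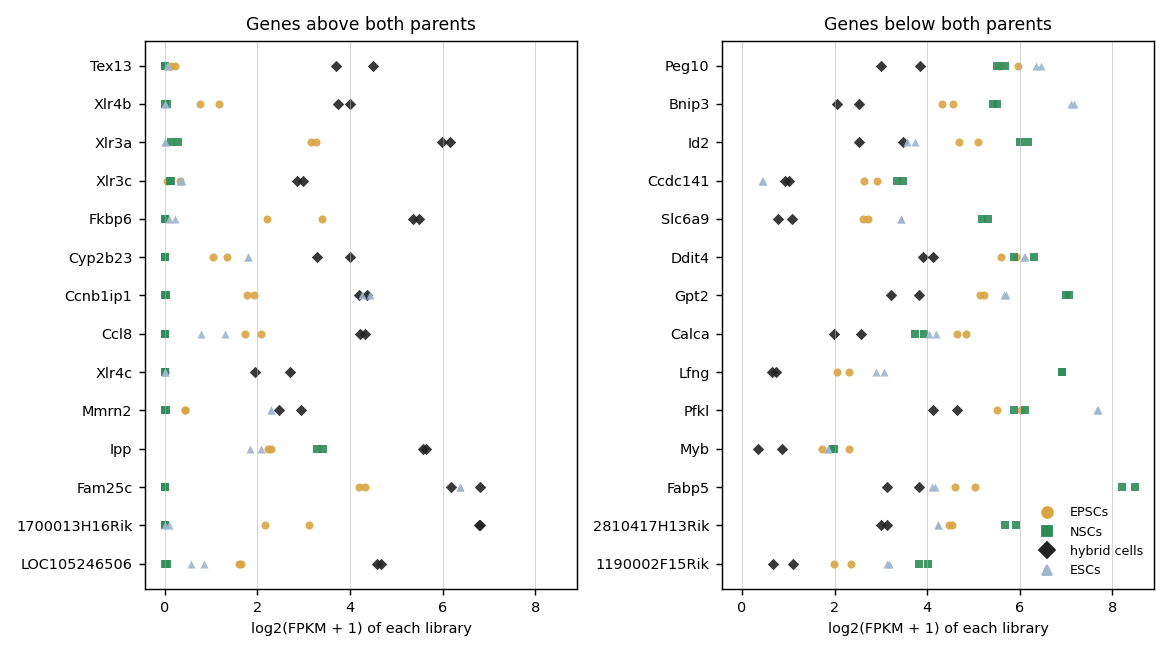
Points are the single libraries of the 14 genes named by rule in each direction, on the log2(FPKM + 1) scale, with 2 libraries for each of the 4 cell types. In the left panel both hybrid libraries lie to the right of all EPSC and NSC libraries, as for Tex13 and Xlr3a, and in the right panel to the left of them, as for Peg10 and Bnip3.

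The Xlr genes form a cluster of related copies on the X chromosome. Xlr3a lies at chrX:73086293-73097095, Xlr4b at chrX:73214321-73222453, and Xlr3c at chrX:73254538-73265576 (GRCm38.p6). Xlr4b had 12.4 and 15.0 FPKM in hybrid cells and 0.696 and 1.26 in EPSCs. Xlr3c had 6.27 and 6.92 FPKM against 0.0329 and 0.253 in EPSCs. Xlr4c, listed at 0 in every EPSC, NSC, and ESC library, had 2.84 and 5.54 FPKM in hybrid cells. Xlr4a had 13.2 and 15.4 FPKM against 1.85 and 2.83, and Xlr3b 19.8 and 18.8 against 3.12 and 4.56. Xlr4b, Xlr3c, and Xlr4c had mean FPKM under 1 in both parents and entered only through the hybrid cells. The filter therefore favoured their place above both, whereas Xlr3a, Xlr3b, and Xlr4a also passed it in EPSCs. Reads of such copies can be assigned to the wrong member, so the rise holds for the Xlr3 and Xlr4 genes together and its division among them is uncertain.

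The start regions of the Xlr4 copies are shown because they rose together and are nearly the same sequence. Over the 250 bases before the annotated start, the identity without gaps at the best shift was 98.4% between Xlr4a and Xlr4b, 99.1% between Xlr4b and Xlr4c, and 98.3% between Xlr3b and Xlr3c, but 67.2% between Xlr3a and Xlr3b and 39.7% between Xlr3b and Xlr4c. Capitals mark CCAATCAG, searched on both strands, which occurred in this window in 6 of 9 Xlr3, Xlr4, and Xlr5 genes and in 3.83% of the 32851 RefSeq promoter windows. The sequences are from RefSeq, 5′ to 3′ on the strand of the gene, and lie within the 250 bases before an annotated transcript start.
Xlr4a, GRCm38.p6 chrX:73082508-73082606 (minus strand): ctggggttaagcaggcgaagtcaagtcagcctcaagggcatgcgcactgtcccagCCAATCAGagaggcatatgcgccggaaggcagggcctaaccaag
Xlr4b, GRCm38.p6 chrX:73214241-73214332 (plus strand): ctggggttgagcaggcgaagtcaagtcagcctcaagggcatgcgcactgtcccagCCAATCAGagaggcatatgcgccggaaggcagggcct
Xlr4c, GRCm38.p6 chrX:73243131-73243199 (minus strand): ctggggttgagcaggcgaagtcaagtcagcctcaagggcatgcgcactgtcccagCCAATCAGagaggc
Xlr3b, GRCm38.p6 chrX:73192103-73192178 (plus strand): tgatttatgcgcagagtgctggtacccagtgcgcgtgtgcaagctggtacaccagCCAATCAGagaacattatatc
The Xlr3b window shares the CCAATCAG letters, which also lie close to the start, but little of the sequence around them. A match describes the letters in the window and not a bound site.

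Germline genes, which are largely silent in somatic cells, were either above both parents or close to EPSCs in most cases. Of 22 tested members of a list of 28, 11 were above both parents (50% against 4.24% of all genes), 8 at the EPSC level, 3 between, and 0 below both. The 11 include the related copies Xlr3a, Xlr3b, and Xlr4a, whose reads can be misassigned, so they are not fully separate members. These copies, Tex13, Rhox5, and Taf7l lie on the X chromosome, where 7.9% of tested genes were above both. Among the 11, Tex13 had mean FPKM under 1 in both parents and entered only through the hybrid cells. Rhox5, an X-linked homeobox gene, was the most abundant of the 11, with 952.2 and 952.7 FPKM in the hybrid libraries, 360.7 and 414.9 in EPSCs, 1.57 and 0.708 in NSCs, and 59.8 and 60.9 in ESCs. Dazl, an RNA-binding protein of germ cells, had 22.04 and 35.84 FPKM against 8.15 and 10.8 in EPSCs. Tuba3a, a testis tubulin, had 22.01 and 33.05 against 6.06 and 10.7. Mael, of the piRNA pathway, had 6.73 and 11.7 against 4.16 and 5.78, with an adjusted p of 0.0313 against EPSCs. The letters CACGTG, an E-box found in many germline promoters, occurred within 250 bases before the start in 3 of the 10 members with a RefSeq window (Fkbp6, Mael, and Taf7l) and in 6.02% of all windows. The windows around the match in Taf7l, a germ cell subunit of the transcription machinery, and in Fkbp6 are shown with the E-box in capitals.
Taf7l, GRCm38.p6 chrX:134476494-134476579 (minus strand): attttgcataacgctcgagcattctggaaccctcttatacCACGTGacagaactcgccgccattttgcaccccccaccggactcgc
Fkbp6, GRCm38.p6 chr5:135350045-135350121 (minus strand): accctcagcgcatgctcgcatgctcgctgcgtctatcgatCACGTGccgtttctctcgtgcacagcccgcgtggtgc
The 3 germline genes between both parents were the meiotic genes Sycp1 and Sycp3 and the germ cell helicase Ddx4.

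Fibroblast genes formed the largest listed block above both parents. Of 31 tested members, 24 were above both (77.4% against 4.24%) and 0 below, and their median difference from EPSCs was 1.33 on the log2 scale against 7.03e-05 over all genes. Among the 24, Pdgfrb had mean FPKM under 1 in both parents and entered only through the hybrid cells. Ctgf was the 1 member called lower than EPSCs, against 26 higher, with 32.6 and 50.3 FPKM against 76.81 and 122.1. Col1a1, a fibrillar collagen chain, had 61.0 and 46.2 FPKM in the hybrid libraries, 13.7 and 15.7 in EPSCs, 0.226 and 0.192 in NSCs, and 1.86 and 2.06 in ESCs. It was 3.66-fold above EPSCs (adjusted p = 0.000155). Dcn, a collagen-binding proteoglycan, had 41.7 and 33.9 FPKM in hybrid cells against 10.8 and 9.70. Col3a1 (43.6 and 33.4 against 10.4 and 10.5), Lum (18.4 and 16.7 against 5.03 and 4.02), and Postn (41.1 and 31.1 against 11.5 and 10.5) moved alike. Hybrid library 1 was the higher one in all 5 genes, as in the summed markers, and both hybrid libraries were above every parental library. Whether these transcripts came from feeder cells or from the hybrid cells was not tested. Postn, Bgn, and Steap4 are also the 3 genes above both parents among 7 EPSC genes that the study chose, a list that is not independent evidence of direction. Of the others, Tnc, Vcam1, and Esrp1 were between both parents and Csf1 at the NSC level. Esrp1 went the other way against EPSCs, with a difference of -1.06 (log2, limma adjusted p = 0.00461). Bgn had 131.1 and 98.5 FPKM against 43.9 and 43.3 in EPSCs, and Steap4 1.80 and 1.96 against 0.307 and 0.37. Steap4 passed the expression filter only through the hybrid cells, where it was high, so the filter favoured its place above both. In bulk RNA, more cells of a kind and more RNA per cell cannot be told apart.

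Of 21 tested interferon response genes, 12 were above both parents (57.1% against 4.24% of all genes) and 0 below. Among the 12, Oas2, Oasl2, Ifit1, Ifit3, Usp18, and Irf7 had mean FPKM under 1 in both parents. These entered only through the hybrid cells, where they were high, so the filter favoured the count above both. The summed FPKM of the list overlapped, at 178.66 and 156.24 in the hybrid libraries and 174.25 and 123.72 in EPSCs. Isg15, a ubiquitin-like protein, had 10.7 and 9.63 FPKM in the hybrid libraries, 4.44 and 2.31 in EPSCs, and 0.25 and 0.575 in NSCs, and was higher still in ESCs, at 19.85 and 18.96. Oas2, a sensor of double-stranded RNA, had 2.21 and 2.55 FPKM in hybrid cells against 0.813 and 0.403 in EPSCs, and 28.0 and 28.5 in ESCs. Ifit3, Usp18, and Oas1g had between 1.97 and 3.60 FPKM in hybrid cells and at most 1.19 in EPSCs. The summed fibroblast markers given above were also higher in hybrid cells than in EPSCs. In ESCs the interferon list summed to 726.42 and 687.04 FPKM and those markers to 12.4 and 13.7. The part of the markers in the list was not tested.

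Among pluripotency genes, Zfp42 and Prdm14 were above both parents. Zfp42, which encodes REX1 and marks the naive state, had 228 and 201.5 FPKM in the hybrid libraries, 87.4 and 88.4 in EPSCs, 0 listed in NSCs, and 345.6 and 334.6 in ESCs. Its difference from EPSCs was 1.28 ± 0.0659 (adjusted p = 6.34e-05). Prdm14, a repressor of differentiation and of DNA methylation, had 5.71 and 4.71 FPKM against 3.18 and 2.66, a difference of 0.66 that fell below the 1.5-fold minimum when EPSC library 2 (0.57) or hybrid library 1 (0.55) was left out or hybrid values were centred by chromosome (0.52). Klf4 and Fgf4 were between both parents. Klf4, a factor of the naive network, had 76.3 and 99.7 FPKM in the hybrid libraries, 131.9 and 134.6 in EPSCs, and 1.80 and 2.41 in NSCs. Fgf4, a growth factor of the inner cell mass, had 59.6 and 44.6 FPKM against 114 and 97.1 in EPSCs and was listed at 0 in NSCs. Nanog, at 315 and 326.7 FPKM against 351.8 and 334.1, was not called apart from EPSCs.

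Genes of the 2-cell stage gave calls that rested on single libraries. Zscan4b, Zscan4c, and Zscan4d, copies of a telomere-associated zinc finger gene, were above both parents among 11 tested members (27.3% against 4.24% of all genes). Zscan4c had 8.859 and 11.81 FPKM in hybrid cells and 2.34 and 6.55 in EPSCs, and Zscan4d 8.16 and 10.6 against 3.19 and 7.18. The count above both was 1 of 11 without EPSC library 1 or without either NSC library, 6 without EPSC library 2, and 0 without hybrid library 2. Reads of the near-identical Zscan4 copies can be divided between them.

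Single imprinted genes were outside both parents. Of 17 tested paternally expressed genes, 1 was above both parents (5.88% against 4.24% of all genes), 2 below (1.93% of all genes were), 9 at the EPSC level, and 4 between. Peg10, a retrotransposon-derived gene needed in the placenta, had the largest difference from the nearer parent of the named genes below both, with 13.4 and 7.05 FPKM in the hybrid libraries, 61.5 and 45.8 in EPSCs, 44.6 and 50.6 in NSCs, and 81.1 and 86.4 in ESCs. It fell by 2.33 ± 0.255 from EPSCs and by 2.17 ± 0.255 from NSCs (log2; larger adjusted p = 0.000586). Peg3, a zinc finger gene, had 13.1 and 10.3 FPKM against 24.8 and 24.4 in EPSCs and 31.6 and 31.4 in NSCs. Igf2, a fetal growth factor, was above both parents, with 12.4 and 8.88 FPKM against 3.833 and 3.996 in EPSCs and 0.151 and 0.208 in NSCs. Of 14 tested maternally expressed genes, 2 were above both parents (14.3%) and 0 below. H19, the noncoding RNA of the Igf2 domain, had 40.3 and 29.3 FPKM in the hybrid libraries, 18.4 and 17.1 in EPSCs, and 3.62 and 3.31 in NSCs. Ddc, the aromatic amino acid decarboxylase, had 11.35 and 11.97 against 4.83 and 5.02 in EPSCs. Parental alleles were not resolved in these values. Among those above both parents, hybrid library 1 was the higher one in Igf2 and H19, as in the summed fibroblast markers, but not in Ddc. The part of those markers was not tested.

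The genes below both parents mostly differed from EPSCs by less than 2-fold on the log2(FPKM + 1) scale. On this scale, the median difference from the nearer parent was -0.73, and the largest was -2.17. The difference reached 2-fold or more in 37 of 250 genes and 4-fold or more in 2. On the FPKM means, more genes passed 4-fold. Among them were Ccdc141, Slc6a9, Lfng, Myb, Bnip3, and Peg10, at 4.65-fold to 6.15-fold below the nearer parent. EPSCs were the nearer parent for 211. Between the parents, NSCs were higher in 141 and EPSCs in 6, and 103 were not called. Both hybrid libraries lay below all 4 parental libraries in each of the 250, which held for 16.4% of all genes tested, and below the ESC libraries too in 197. The hybrid mean was under 3 FPKM in 83 of the 250. Coding genes made up 247.

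Among the leading genes below both parents were Bnip3 and Id2. Bnip3, a mitophagy receptor and a classic hypoxia target, had 4.81 and 3.15 FPKM in the hybrid libraries, 22.6 and 19.02 in EPSCs, 44.5 and 41.9 in NSCs, and 142.9 and 137.5 in ESCs. It was 5.23-fold lower than in EPSCs and 10.9-fold lower than in NSCs (larger adjusted p = 0.000128). Id2, an inhibitor of basic helix-loop-helix factors downstream of BMP, had 4.788 and 10.15 FPKM against 24.9 and 33.4 in EPSCs and 63.4 and 71.5 in NSCs (larger adjusted p = 0.00187). The hybrid libraries of Id2 differed from each other but did not overlap with those of either parent.

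Several transporters and enzymes had the same pattern. Slc6a9, a glycine transporter, had 0.704 and 1.12 FPKM in the hybrid libraries, 5.62 and 5.15 in EPSCs, and 38.5 and 35.1 in NSCs. Gpt2, the mitochondrial alanine aminotransferase, had 8.31 and 13.2 FPKM against 34.1 and 36.4 and against 131.9 and 126.5. Fabp5, a fatty acid binding protein, had 7.83 and 13.1 FPKM against 23.2 and 31.7 and against 357.1 and 296.5. Among regulators, Lfng, which modifies Notch receptors, had 0.58 and 0.655 FPKM in the hybrid libraries, 3.94 and 3.14 in EPSCs, and 119.8 and 118.9 in NSCs. Myb, a transcription factor, had 0.823 and 0.272 FPKM against 3.98 and 2.31 in EPSCs and 2.93 and 2.94 in NSCs. Calca, which encodes calcitonin, was nearer to NSCs, with 4.91 and 2.96 FPKM against 27.7 and 24.2 in EPSCs and 12.3 and 14.3 in NSCs. Ccdc141, a coiled-coil gene, had 1.01 and 0.895 FPKM against 6.53 and 5.21 in EPSCs and 10.19 and 9.148 in NSCs, and the ESC libraries were lower still, at 0.367 and 0.357. Of gene models, 2810417H13Rik had 6.98 and 7.79 FPKM against 21.2 and 22.1 in EPSCs, and 1190002F15Rik 1.14 and 0.589 against 2.97 and 4.10. The NSC markers Nes, Olig1, Slc1a3, and Msi1 were also below the low EPSC level. Of the same list, Sox21 and Egfr were called higher than EPSCs and lay between both parents. Sox21 had 3.083 and 4.555 FPKM in the hybrid libraries against 1.129 and 1.546 in EPSCs. Egfr had 2.893 and 2.055 FPKM against 0.9643 and 0.949. Slc1a3, a glial glutamate transporter, had 3.47 and 3.09 FPKM in the hybrid libraries, 7.21 and 6.26 in EPSCs, and 404.5 and 431.2 in NSCs. Msi1 and Olig1 missed the 1.5-fold minimum without EPSC library 2 or hybrid library 1, and Msi1 and Nes missed it with hybrid values centred by chromosome.

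Hypoxia and glycolysis genes were below both parents in 6 of 30 tested members (20% against 1.93% of all genes) and above both in 0. The 6 were Bnip3, Pfkl, Ldha, Vegfa, Tpi1, and Ankrd37, and 17 members stayed at the EPSC level, among them the glucose transporter Slc2a1 and Gapdh. Ldha, which makes lactate from pyruvate, had 362.7 and 222.1 FPKM in the hybrid libraries, 817.2 and 581.6 in EPSCs, 644.1 and 615.7 in NSCs, and 1175 and 1118 in ESCs (larger adjusted p = 0.00397). Pfkl, the liver form of phosphofructokinase, had 24.2 and 16.5 FPKM against 64.2 and 44.8 in EPSCs and 68.3 and 57.6 in NSCs. Tpi1, triosephosphate isomerase, had 144.4 and 113.4 FPKM against 259.4 and 224.3 in EPSCs and 425.5 and 378.9 in NSCs. Vegfa, the angiogenic growth factor, had 6.94 and 9.18 FPKM against 15.4 and 18.5 in EPSCs and 100.4 and 78.8 in NSCs. In the 3 glycolytic genes of the 6, hybrid library 2 and EPSC library 2 were each lower than their library 1. The 2 members called higher than EPSCs were Eno2, by 0.61, and the Eno1 copy Eno1b, described below.

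The hypoxia-inducible factors bind a core of the letters ACGTG. These letters occurred on either strand within 250 bases before a start in 4 of these 6 genes, and in 3 when only the first window of a gene was counted. In Vegfa and Ldha they stood before 1 of the annotated starts only. The windows with these matches lay inside the annotated span of the gene, for Vegfa at chr17:46025330-46025413. They occurred in 16.6% of all single windows, and a match also counts where it is part of CACGTG. Windows around the matches nearest the start are shown for Bnip3, Ldha, and Ankrd37, with the matches in capitals.
Bnip3, GRCm38.p6 chr7:138909569-138909653 (minus strand): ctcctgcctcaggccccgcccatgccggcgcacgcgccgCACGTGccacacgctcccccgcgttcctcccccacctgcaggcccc
Ldha, GRCm38.p6 chr7:46845730-46845803 (plus strand): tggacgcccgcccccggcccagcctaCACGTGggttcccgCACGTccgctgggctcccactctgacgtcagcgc
Ankrd37, GRCm38.p6 chr8:45999851-45999896 (minus strand): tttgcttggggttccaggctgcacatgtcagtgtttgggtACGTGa
The 3 genes had hybrid levels of 3.15 to 4.81, 222.1 to 362.7, and 1.20 to 1.21 FPKM. The letters describe the window, and binding was not measured.

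Genes of the cholesterol list, which are switched together by SREBP2, were below both parents in 7 of 23 tested members (30.4% against 1.93% of all genes) and above in 0. Their median difference was -0.36 from EPSCs and -1.51 from NSCs. Insig1, a sterol sensor, had 39.6 and 44.3 FPKM against 82.9 and 87.0 in EPSCs and 118.9 and 123.6 in NSCs, and fell by 1.00 ± 0.0655 from EPSCs (log2, SE; limma adjusted p = 9.84e-05). Hmgcs1, which makes HMG-CoA, had 66.5 and 69.1 FPKM against 115.5 and 119.9 and against 517.4 and 501.5. Cyp51, Msmo1, and Dhcr7, enzymes of the same pathway, fell by 0.68 to 0.97 from EPSCs. The ESC level of Hmgcs1, at 69.8 and 70.5 FPKM, was next to the hybrid level. With hybrid values centred by chromosome (described below), 3 of the 7 stayed below both, and Hmgcs1 and Msmo1 were among those lost. Msmo1 also missed the 1.5-fold minimum without hybrid library 1. The sterol regulatory element TCACNCCAC occurred in 1 of the 5 genes with a RefSeq window, Hmgcs1, and in 1.05% of all windows (both strands), and is shown in capitals.
Hmgcs1, GRCm38.p6 chr13:119690174-119690262 (plus strand): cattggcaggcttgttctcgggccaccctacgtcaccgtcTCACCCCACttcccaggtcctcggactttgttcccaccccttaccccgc

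Targets of ATF4, the transcription factor of the amino acid and stress response, lay mostly below the EPSC level. Of 23 tested members, 18 were lower than in EPSCs (5.69% of all genes were) and 0 higher. They fell into 7 between both parents, 7 at the NSC level, 4 below both, 4 at the EPSC level, and 1 with another pattern, where the shares over all genes were 4.01% between, 2.11% at the NSC level, 1.93% below both, and 52.2% at the EPSC level. The median difference from EPSCs was -1.04 on the log2 scale, and the median position of the members that separated the parents was 0.541 against 0.968 for all such genes. Atf4 itself had 250.1 and 275.6 FPKM in the hybrid libraries, 555.6 and 523.7 in EPSCs, and 109.4 and 114.9 in NSCs. Cth, an enzyme of cysteine synthesis, had 12.2 and 9.28 FPKM against 69.3 and 68.1 in EPSCs. Asns, asparagine synthetase, had 277.8 and 273.5 FPKM in the hybrid libraries, 512.7 and 473.9 in EPSCs, and 29.5 and 30.9 in NSCs.

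Members at or below the NSC level included enzymes of serine and folate metabolism. Mthfd2, of the mitochondrial folate pathway, had 30.5 and 44.9 FPKM in the hybrid libraries, 141.2 and 135.4 in EPSCs, and 24.1 and 25.2 in NSCs. It exceeded NSCs by 0.57 (limma adjusted p = 0.00785), short only of the 1.5-fold minimum. Atf5, a related transcription factor, had 12.5 and 14.9 FPKM against 47.3 and 55.6 in EPSCs and 16.1 and 18.1 in NSCs. Phgdh, the first enzyme of serine synthesis, had 69.5 and 73.2 FPKM and was below both the EPSCs (167.6 and 154.8) and the NSCs (122.3 and 126.7), by -1.16 ± 0.0581 and -0.79 ± 0.0581 (larger adjusted p = 5.42e-05). Shmt2, its neighbour in the pathway, had 58.7 and 63.9 FPKM against 114.1 and 122.8 and against 94.1 and 101. Ddit4, an inhibitor of mTORC1, had 16.6 and 14.1 FPKM against 59.2 and 47.5 and against 78.6 and 57.8. The count below both parents was 8 when libraries were scaled to a common sum and 2 when hybrid values were centred by chromosome, where Phgdh and Shmt2 lost their calls. In the plot of list members, the ATF4 points reach from -2.58 to -0.06 against EPSCs.

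**Figure D3:**
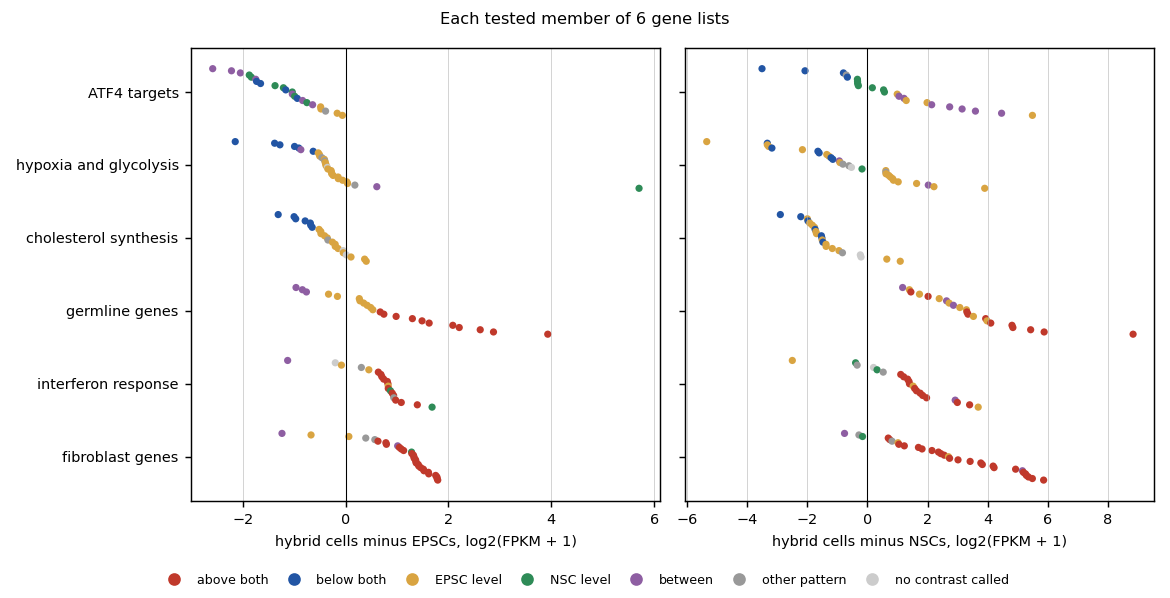
Each point is a tested member of 1 of 6 gene lists, placed by its difference between hybrid cells and EPSCs (left) or NSCs (right) in log2(FPKM + 1), with members sorted within a list and coloured by class. Fibroblast, interferon, and germline members lie mostly to the right of 0 in both panels, and ATF4 members to the left of 0 against EPSCs only.

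Genes at the NSC level were few. Of the 274, 159 were higher in EPSCs and 115 higher in NSCs, and the median position was 0.157. Under the common sum the class held 273 genes, of which 114 were among the 274. Besides Mthfd2, the largest differences among EPSC-high genes were those of Rpph1 (1.48 and 2.22 FPKM in the hybrid libraries, 39.0 and 15.2 in EPSCs, 0.789 and 0.303 in NSCs) and the ectoenzyme Enpp3 (1.80 and 0.807, 11.7 and 8.45, 1.04 and 1.17). Rpph1 and the fourth, Snord17, are short noncoding RNAs, which poly-A libraries capture poorly. Snord17 was listed at 0 in hybrid library 1 and at 1.33 FPKM in library 2, against 6.27 and 2.68 in EPSCs, and was not called without EPSC library 1 (adjusted p = 0.065).

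Among NSC-high genes, Eno1b had 146.4 and 106.2 FPKM in the hybrid libraries, 1.54 and 1.29 in EPSCs, 148.3 and 134.3 in NSCs, and 364.6 and 331.9 in ESCs. It was 89.3-fold above EPSCs (adjusted p = 4.52e-06) and not called apart from NSCs, by -0.18 ± 0.143. Eno1b is a copy of the enolase gene Eno1, and reads may be divided between the copies. Eno1 itself had 1620 and 1104 FPKM in hybrid cells and 1694 and 1293 in EPSCs. Cog1, a Golgi tethering subunit, had 10.5 and 11.4 FPKM in the hybrid libraries, 3.88 and 4.49 in EPSCs, and 15.65 and 16.03 in NSCs. Its difference from NSCs was -0.49 (limma adjusted p = 0.00069), short only of the 1.5-fold minimum. Csf1, a macrophage growth factor and 1 of the 7 EPSC genes of the study, had 13.1 and 6.41 FPKM, 3.21 and 2.77 in EPSCs, and 10.8 and 11.5 in NSCs, so that the NSC libraries lay between the hybrid ones. Lrrc32, which anchors latent TGF-beta, had 3.45 and 2.82 FPKM against 0.737 and 1.15 in EPSCs and 4.42 and 4.82 in NSCs. Like Cog1, it was short only of the fold minimum against NSCs (-0.45, limma adjusted p = 0.00958).

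The class between both parents held 520 genes, of which 390 had a position of 0.25 to 0.75. On this log2(FPKM + 1) scale, a further 129 lay nearer to EPSCs and 1 nearer to NSCs. A gene near the mean of the parental FPKM can lie far from 0.5 on it. Fgf4 was at 0.849 with a mean of 52.1 FPKM in hybrid cells, 105.5 in EPSCs, and 0 listed in NSCs. The 520 genes were divided almost evenly by direction, with 266 higher in EPSCs and 254 higher in NSCs. Gars, the glycyl-tRNA synthetase, was at 0.501, with 157.5 and 166.3 FPKM in the hybrid libraries, 343.4 and 317.4 in EPSCs, and 76.8 and 81.0 in NSCs. Krt7, a keratin of simple epithelia, was at 0.503, Fgf17 at 0.504, and Gstt2, a glutathione transferase, at 0.507. Fgf17 was not called without EPSC library 1 (adjusted p = 0.0613) or with a pseudocount of 0.1 (adjusted p = 0.0599). In the other direction, Ehd3, of endosomal transport, was at 0.498, with 3.04 and 2.85 FPKM in the hybrid libraries, 1.02 and 0.817 in EPSCs, and 6.92 and 7.21 in NSCs. Parp8 was at 0.497, Cd99l2 at 0.507, and the receptor kinase Axl at 0.488, with 8.18 and 5.39 FPKM in the hybrid libraries, 2.81 and 2.08 in EPSCs, and 15.7 and 15.4 in NSCs. Of 14 tested trophectoderm genes, 6 were between both parents, against 4.01% of all genes. Krt8, the partner of Krt18 in the first epithelium of the embryo, had 5.55 and 5.44 FPKM in hybrid cells and 21.9 and 18.9 in EPSCs. Krt18 had 5.25 and 6.70 FPKM against 12.8 and 13.8. Fgfr2 was the 1 member below both parents (7.14% against 1.93% of all genes), at 1.55 and 1.61 FPKM against 3.81 and 2.69 in EPSCs. It missed the 1.5-fold minimum without EPSC library 1 or with centring by chromosome.

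**Figure D4:**
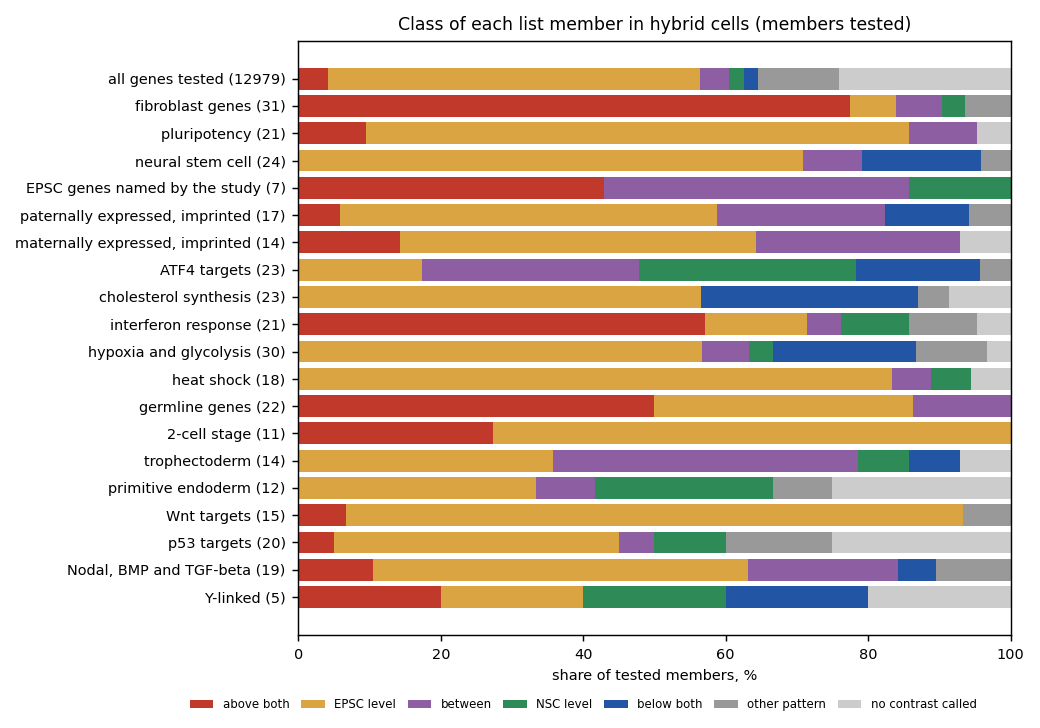
Bars give the share of tested members of each of 19 gene lists and of all 12979 genes in each class of hybrid cells, with the number tested in parentheses. Fibroblast genes have the largest share above both parents (77.4%), and cholesterol synthesis the largest share below both (30.4%).

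The share at the EPSC level, 52.2% over all genes, differed among the remaining lists. Heat shock genes were at it in 15 of 18 members and outside both parents in 0 (1 was above both without NSC library 2 or hybrid library 2, and with pseudocount 0.1, quantile normalization, or centring by chromosome), with Hspb1 at 425.8 and 402.6 FPKM against 368.4 and 407.5, and Hspb8 at 53.3 and 67.7 against 48.2 and 61.7. Of 15 Wnt target genes, 13 were at the EPSC level and 1, Sp5, was above both parents (6.67% against 4.24% of all genes, with a count of 3 without hybrid library 2 and 2 without EPSC library 1), with 8.60 and 7.41 FPKM against 3.66 and 3.38. Of 20 p53 targets, 1 was above both (5.0%, near the 4.24% of all genes), Phlda3, at 79.2 and 59.4 FPKM against 47.3 and 38.3 in EPSCs and 34.1 and 34.0 in NSCs, a call that was lost under the common sum, with centring by chromosome, and without EPSC library 2 or hybrid library 1. The count of p53 targets above both was 3 without hybrid library 2. Of 12 primitive endoderm genes, 0 were outside both parents (3 were above both without hybrid library 2, 2 with centring by chromosome, and 1 with a pseudocount of 0.1), and the largest differences from the midpoint were those of the basement membrane genes Lama1 (5.38 and 5.83 FPKM in the hybrid libraries, 5.91 and 5.77 in EPSCs) and Col4a2 (9.453 and 7.999, 5.51 and 5.70). Of 19 Nodal, BMP, and TGF-beta genes, Bmp4 (44.8 and 34.9 FPKM against 20.7 and 16.2 in EPSCs) and its inhibitor Smad6 (1.77 and 3.08 against 1.01 and 1.43) were above both and Id2 below both. The shares were 10.5% above and 5.26% below, against 4.24% and 1.93% of all genes. Smad6 was not called without EPSC library 1, either NSC library, or hybrid library 2, with quantile normalization, with centring by chromosome, or with only the 6 parental and hybrid libraries fitted. The count of this list above both was 4 without EPSC library 2 or with centring by chromosome. Of 5 Y-linked genes tested, Eif2s3y, a translation factor subunit, was above both parents, with 60.6 and 62.2 FPKM against 18.6 and 23.2 in EPSCs and 25.9 and 27.1 in NSCs, a call that just missed the 1.5-fold minimum under the common sum (0.58 from the nearer parent). Without EPSC library 2, 2 Y-linked genes were above both. Kdm5d, a histone demethylase, was below both, with 3.56 and 3.96 FPKM against 6.87 and 7.60 and against 9.65 and 9.81. With all libraries, 1 of the 5 was above both and 1 below both, against 4.24% and 1.93% of all genes.

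Genes outside both parents were not spread evenly over the chromosomes, a pattern noticed after the values were seen. The median difference between hybrid cells and EPSCs was taken over the genes of each chromosome with a mean of at least 3 FPKM in these libraries, 9354 genes in all, with the 6 genes of the Y chromosome not classed. It was above 0 on 9 chromosomes (1, 2, 4, 9, 11, 12, 16, 19, and X), from 0.05 on chromosome 9 to 0.22 on chromosome 16. It was below 0 on the other 11, from -0.26 on chromosome 13 to -0.13 on chromosome 17, and no chromosome had a median between -0.13 and 0.05. Both hybrid libraries gave every chromosome the same side, with 0.06 to 0.24 and 0.05 to 0.21 on the first set and -0.24 to -0.15 and -0.28 to -0.13 on the second. The EPSC libraries differed from each other by 0.01 to 0.06, and ESCs minus EPSCs did not follow this division, with -0.21 to -0.09 on the first set and -0.28 to 0.25 on the second.

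**Figure D5:**
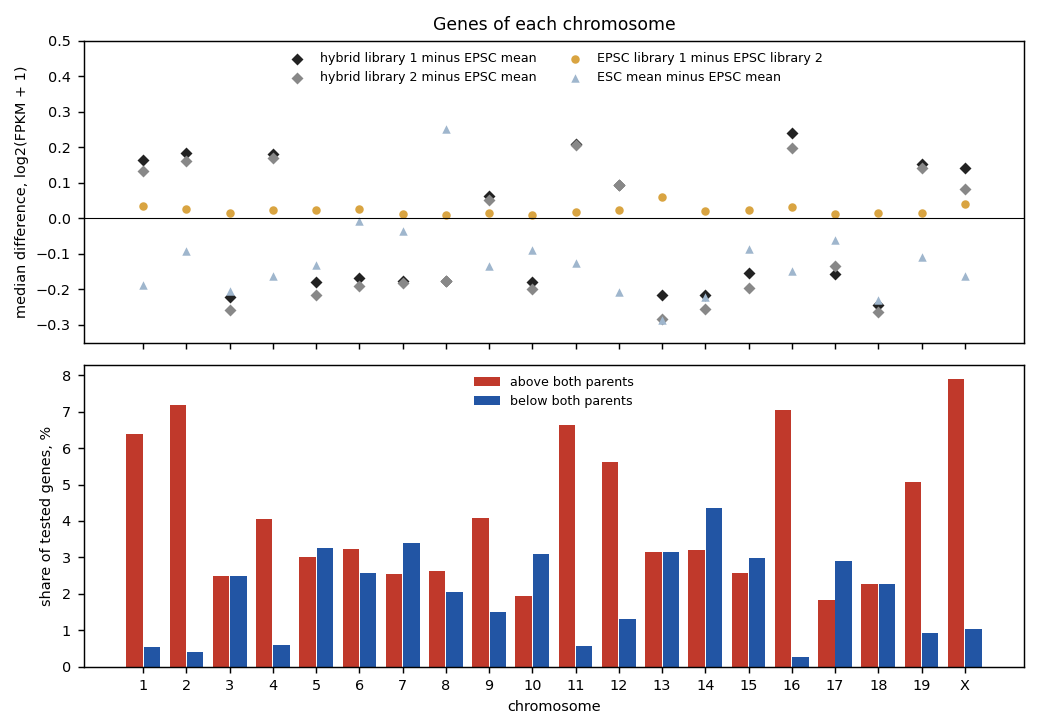
The upper panel gives, for each chromosome, the median difference in log2(FPKM + 1) of each hybrid library from the EPSC mean, of the EPSC libraries from each other, and of ESCs from EPSCs, and the lower panel the share of tested genes above and below both parents. Chromosomes 1, 2, 4, 9, 11, 12, 16, 19, and X lie above 0 in both hybrid libraries and hold more genes above than below both parents. Chromosomes 6 and 8, which lie below 0, also hold more genes above than below.

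The shares of both classes followed the division, which was largely given by the definitions. Classes and division use the same difference between hybrid cells and EPSCs. EPSCs were the nearer parent for 499 of the 550 genes above and 211 of the 250 below. The shares are therefore no separate evidence of the division. On the 9 chromosomes with a positive median, 366 of 6130 tested genes (5.97%) were above both parents and 46 (0.75%) below. On the 11 others, 178 of 6808 (2.61%) were above and 202 (2.97%) below. The share above ranged from 4.06% to 7.9% over the first set and from 1.83% to 3.23% over the second. These are descriptions without a test, since genes of a chromosome are not replicates of the fusion. The DNA content of the single chromosomes was not measured in these data, and its part in the division was not tested. When the hybrid values were centred by chromosome, an alternative chosen after seeing the data, 510 genes were above both parents, of which 399 were among the 550, and 170 below both, of which 116 were among the 250. Under this centring, fibroblast genes counted 22 above both parents, germline genes 11, and interferon genes 11, hypoxia and glycolysis genes counted 6 below both, cholesterol genes 3, and ATF4 targets 2.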

How the data were processed

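Poly-A RNA of 8 libraries, 2 in each of 4 groups, had been prepared with a stranded kit. The authors deposited gene-level FPKM values. The submitters' processing notes name STAR 2.7.9a, Cufflinks 2.2.1, Cuffnorm 2.2.1, and mm10. FPKM are not counts, so limma 3.58.1 in R 4.3.3 was fitted to log2(FPKM + 1) of all 8 libraries, with contrasts of hybrid cells against EPSCs, NSCs, and their midpoint, and two-sided p-values adjusted by Benjamini-Hochberg over 12979 genes. For a single gene, an exact permutation test of 2 against 2 libraries cannot go below p = 0.333. Differences are on the log2(FPKM + 1) scale and understate changes of low genes. A gene listed at 0 may be a failed estimate, and no fold was formed against such a group. The procedure was tested on simulated data with known changes.

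In each direction, the text names the 12 genes farthest from the nearer parent with at least 3 FPKM in 1 group and hybrid libraries outside all 4 parental ones, plus 2 unnamed gene models. It also names 4 genes per direction for the other classes and the leading members of 19 lists. Other list members, such as Klf4, Fgf4, Nanog, Rhox5, Dazl, Cth, and Krt8, and the division by chromosome were chosen after their values were seen. The members and lists were chosen with earlier results of these data known. Alternatives covered the pseudocount, filter, scaling, fold minimum, libraries fitted, replicate block, a threshold rule after the study's methods, and each library left out. Python 3.11.15 was used for the class counts. Columns of the authors' own comparisons were not used. Some members of the cholesterol list are counted but not reported here by name.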

Additional observations from a re-analysis of the deposited data

How the results depend on the processing

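Named genes were followed under 12 alternatives (pseudocount 0.1, both scalings, fewer libraries fitted, the block, centring by chromosome, and each library left out), where none reversed and at most 10 of 100 lost their call. They were not followed singly under the other filters, thresholds, and pseudocount 3. Pseudocount 0.1 gave 472 genes below both parents and 975 between. Pseudocount 3 gave 321 above, 114 below, 163 at the NSC level, and 247 between. Genes with a mean under 1 FPKM in both parents entered only through the hybrid cells. Without the filter, 538 genes were above both and 245 below. Scaling to a common sum, which moved the median difference from NSCs from 0.05 to -0.53, gave 429 below both, 4570 lower than the midpoint, and a median position of 0.979, as did quantile normalization (0.979). A minimum of 2-fold gave 190 above, 37 below, 88 at the NSC level, 111 between, and 1326 higher and 1393 lower than the midpoint. No fold minimum gave 1671, 1283, 603, 2205, 5047, and 5084. The threshold rule after the study's methods gave 101 above, 12 below, 3180 at the EPSC level, 56 at the NSC level, and 22 between. The deposited FPKM summed to 415239.7 and 415412.4 in the NSC libraries, and to 619154.7 to 653796.4 in the EPSC and hybrid libraries. A common sum therefore raised NSC values relative to the EPSC and hybrid values. The causes of the unequal sums and of the other shifts were not tested.

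Leaving out 1 library at a time gave 508 to 587 genes above both, 240 to 310 below, and a median position of 0.957 to 0.976. The lone library was then assumed to vary like the other groups. Nothing in the labels pairs samples by replicate number. Deviations of equal numbers correlated at 0.28 between EPSCs and hybrid cells, 0.07 between EPSCs and NSCs, 0.05 between ESCs and hybrid cells, and -0.02 between NSCs and hybrid cells, and 2 pairs do not settle whether the numbers pair the first of these. With the replicate number as a block, 561 genes were above both parents, 255 below, 6759 at the EPSC level, 276 at the NSC level, and 530 between. Depth limits low genes, and 1 line per group limits all p-values to these libraries.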
